A study of Oryza sativa Japonica Group with 41 samples.

Results

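Histone H3 acetylation at lysine 9 (H3K9ac) was compared in rice leaves between 2 points of the diurnal cycle, ZT18 in the night and ZT6 at midday. The 4 libraries of this comparison, 2 at ZT18 and 2 at ZT6, were taken by their time label from the 41 samples of the series. All 4 came from leaves of the japonica cultivar DongJin, labelled as 30 days old and untreated, and were immunoprecipitated with the same anti-H3K9ac antibody. Zeitgeber time (ZT) counts hours from the start of the light period, and the growth conditions gave 16 h of light and 8 h of dark, so that ZT18 falls in the dark period and ZT6 in the light period. The study also mapped H3K9ac and the butyrylation (Kbu) and crotonylation (Kcr) of histone lysines in 12-day-old seedlings under control conditions, 48 h of darkness (starvation) and 6 h of submergence, and H3K9ac in leaves at ZT0 and ZT12. The diurnal libraries served to relate H3K9ac to gene expression through the day. The labels do not say whether the 2 replicates of a time point came from separate plants, so the p-values below measure the spread between libraries only, which may be technical.

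H3K9ac is placed by histone acetyltransferases and removed by histone deacetylases, and it is found mainly over the promoter and the first part of transcribed genes. The acetyl group removes the positive charge of the lysine and is bound by bromodomain proteins of the transcription machinery. In Arabidopsis, H3K9ac at the promoters of core clock genes rises and falls over the day.

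The data of each library are a list of peaks, stretches of the genome in which immunoprecipitated fragments were enriched, with the number of tags (aligned reads at distinct positions) in each. Replicate 2 of ZT18 was the shallowest of the 4 libraries. MACS, the peak caller, used 16232431 and 5914314 tags for the ZT18 replicates, against 10279155 and 15733161 for the ZT6 replicates, after it had removed 35.0% and 60.3% of its ZT18 tags, against 48.9% and 26.8% of its ZT6 tags, as repeats of a position. It called 24441 and 21585 peaks at ZT18, against 22853 and 21628 at ZT6. The peaks covered 34.9 and 26.3 Mb at ZT18, against 33.1 and 38.5 Mb at ZT6. The ranges of the time points overlapped in peak number and in covered length. The peaks held 53.8% and 51.0% of the tags of their library at ZT18, against 59.9% and 55.5% at ZT6, where both ZT18 values were the lower ones. Peaks of 4000 bp or more numbered 211 and 78 at ZT18, against 390 and 982 at ZT6, so that both ZT6 libraries had more of them than either ZT18 library. The leaf libraries at ZT0 had 151 and 413 such peaks and those at ZT12 369 and 417. Replicate 1 of ZT6 and of ZT18 lay within that range, ZT6 replicate 2 above it and ZT18 replicate 2 below it. ZT18 replicate 1 and ZT6 replicate 2 were the pair closest in depth.

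Merging the peaks of the 4 libraries where they overlapped by at least 1 bp gave 25654 regions on the 12 chromosomes of the MSU7.0 assembly. A peak was present in all 4 libraries in 19055 regions (74.3%), and these were tested. The 698 regions with a peak in both ZT18 libraries and in neither ZT6 library are called appearing below, and the 680 regions with the opposite pattern vanishing. The other regions had a peak in some libraries of a time point only. Of these, 1675 had a peak in ZT18 replicate 1 alone, and 964 lacked one in the shallow ZT18 replicate 2 alone. Levels are given as normalized tags, the tags of a region per 1000000 tags in the tested regions after TMM scaling. Between replicates, the log2 ratio of normalized tags had an SD over regions of 0.325 at ZT18 and 0.304 at ZT6, against 0.505 between ZT18 and ZT6 replicate 1 and 0.627 between ZT18 and ZT6 replicate 2.

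More regions were called lower than higher at ZT18 for summed tags. For tags per kb of called length, under the same library scaling, more were called higher. By the quasi-likelihood test of edgeR, with p-values adjusted by the Benjamini-Hochberg method, 2698 of the 19055 regions (14.2%) differed at an adjusted p under 0.05. Of these, 1077 were higher at ZT18 (5.65% of the tested regions) and 1621 were lower (8.51%). These are called rising and falling below. The median change was 0.88 on the log2 scale in rising regions and −1.0 in falling regions, against 0.03 in the 16357 regions not called. Large changes were mostly falls. A change of more than 2-fold was found in 399 rising and 813 falling regions, of more than 4-fold in 25 and 131, and of more than 8-fold in 0 and 18. In all of the called regions the ZT18 libraries and the ZT6 libraries did not overlap, and among all tested regions both ZT18 libraries were above both ZT6 libraries in 28.5% and below them in 28.4%. A rule without a test, a ratio over 1.5 in the same direction for replicate 1 against 1 and replicate 2 against 2, gave 906 higher (4.75%) and 1331 lower regions (6.99%). Both rules shared 770 of the higher regions (71.5% of the rising ones and 85.0% of those past 1.5-fold) and 1232 of the lower ones (76.0% and 92.6%).

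These counts depended on the processing. The tags of a region grow with the length over which its peak was called, and when the called length of each library was entered as an offset, so that tags per kb were compared, 632 regions were higher and 168 lower at ZT18. The share of higher regions among the called ones was then 79.0%, against 39.9% for summed tags, and the median over all tested regions moved to 0.18 on the log2 scale. The library scaling was still that of the summed tags, so this shift of all regions is part of the calls per kb. In the regions not called for summed tags, the median was 0.185 per kb. There the median ratio of called lengths was 0.88 and 0.769 for the shallow ZT18 replicate 2 over ZT6 replicates 1 and 2. When the aligned reads replaced TMM, 0 regions were called higher and 12 lower, with 425 regions at an unadjusted p under 0.05, and the median over all tested regions moved to −0.12. The tags used by MACS were 49.6% and 23.8% of the aligned reads at ZT18, against 31.2% and 48.6% at ZT6. Replicates of a time point thus differed in this share, and its part in the count was not tested. Without the shallow ZT18 replicate 2, edgeR called 625 higher and 895 lower regions, and without ZT18 replicate 1 it called 394 and 847. With peaks required in at least 2 libraries and missing peaks taken as 0 tags, it called 332 and 391.

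**Figure D1:**
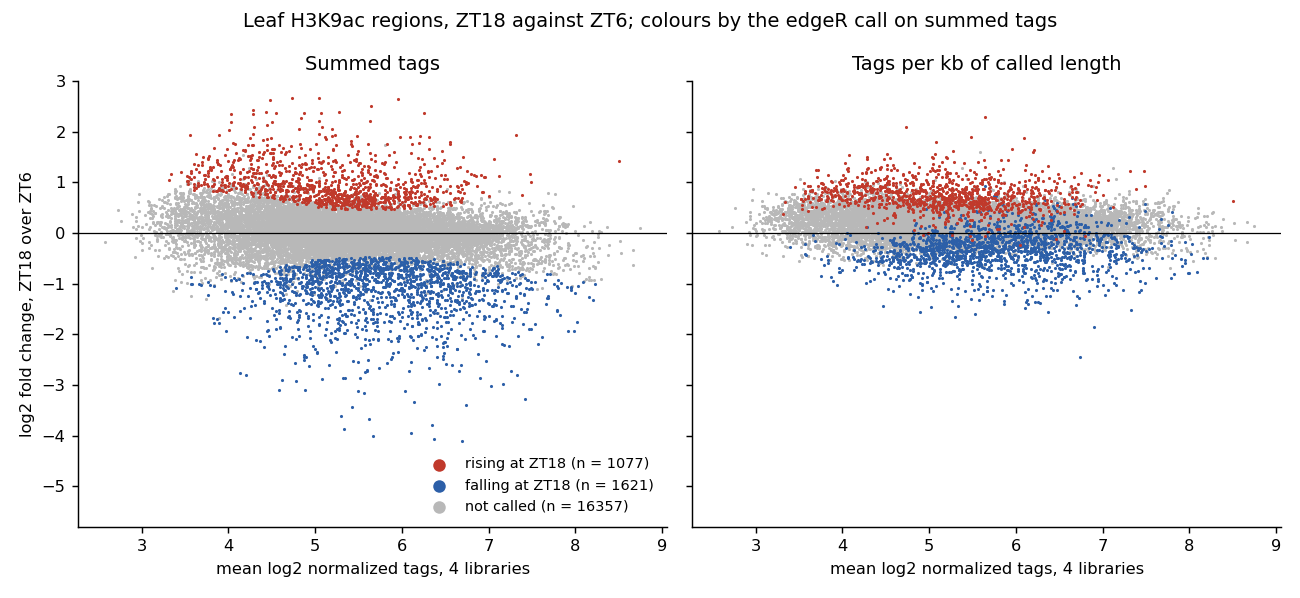
Log2 fold change of ZT18 over ZT6 (vertical axis) against the mean log2 normalized tags of the 4 libraries (horizontal axis) in the 19055 tested regions, for summed tags on the left and for tags per kb of called length on the right. Each point is a region, coloured by the edgeR call on summed tags (1077 rising, 1621 falling). The falls below −2 on the left lie closer to 0 on the right, where 86.1% of the falling regions and 99.3% of the rising regions keep their sign.

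The largest fall was at chr11:7655248-7663158. This region held 29.2 and 20.6 normalized tags at ZT18, against 364 and 515 at ZT6 (242 and 60 tags, against 2045 and 3965). Both ZT18 libraries were thus far below both ZT6 libraries, and the log2 fold change was −4.11 ± 0.32 (SE, adjusted p = 0.000586, edgeR). The mark was called over 1546 and 854 bp at ZT18, against 7635 and 7911 bp at ZT6. Per kb of called length the log2 fold change was −1.42, so the fall was found in tags per kb as well as in extent. The highest fold enrichment of its peaks over their local background went the other way, with 10.1 and 10.55 at ZT18, against 5.46 and 3.89 at ZT6.

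The second fall, at chr2:3270769-3277755, had the same form. It held 20.2 and 20.6 normalized tags at ZT18, against 290 and 394 at ZT6, with called lengths of 1290 and 1114 bp, against 6746 and 6971 bp. The log2 fold change was −4.07 ± 0.27 by edgeR (adjusted p = 0.000586). At chr3:29983330-29991308 the ZT6 replicates themselves lay far apart. There the ZT18 libraries held 11.6 and 15.8 normalized tags, against 121 and 304 at ZT6, and the log2 fold change was −4.01 ± 0.45 (adjusted p = 0.00157, edgeR). Both ZT18 values were still below the lower ZT6 value.

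A different form was seen at chr6:31025402-31029819, the tenth of the largest falls. Its called length differed less, with 2960 and 1317 bp at ZT18, against 4214 and 3954 bp at ZT6. The tags per kb of called length were 112 and 56.9 at ZT18, against 431 and 755 at ZT6, and the log2 fold change per kb was −2.45, the strongest of the 10. For summed tags it was −3.40 ± 0.29 (adjusted p = 0.000701, edgeR). The opposite case was chr4:30567888-30574248, with called lengths of 835 and 804 bp at ZT18, against 5190 and 6361 bp at ZT6. Its log2 fold change was −3.43 for summed tags and −0.59 per kb, where it no longer passed the test (adjusted p = 0.259 by edgeR).

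The other 5 of the 10 largest falls were at chr7:4566029-4570880, chr8:8759737-8764332, chr1:43114937-43122668, chr5:21188284-21193646 and chr11:16446454-16450328. Their log2 fold changes were between −3.94 and −3.61. Over all 10 regions, both ZT18 libraries lay below both ZT6 libraries in level, as in all falling regions, and also in called length. The fold enrichment of the peaks over their local background did not follow. Both ZT18 libraries had a higher fold enrichment than both ZT6 libraries in 5 of the 10 regions and a lower one in 1.

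The largest rise was at chr1:29080878-29082375, a region of 1498 bp. It held 61.7 and 74.8 normalized tags at ZT18, against 13.9 and 7.79 at ZT6 (511 and 218 tags, against 78 and 60), and the log2 fold change was 2.67 ± 0.24 (adjusted p = 0.000813, edgeR). Both ZT18 libraries were clearly above the ZT6 libraries. Its called length was 1491 and 1265 bp at ZT18, against 994 and 838 bp at ZT6, and its fold enrichment 13.67 and 18.28, against 5.83 and 4.35. The rise was therefore mostly one of density, with a log2 fold change per kb of 2.09.

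At chr10:20893361-20897064 the ZT18 libraries held 147 and 172 normalized tags, against 19.6 and 30.6 at ZT6, the highest level at ZT18 among the 10 largest rises. The log2 fold change was 2.65 ± 0.23 (adjusted p = 0.000701, edgeR). At chr2:30094081-30096315 the called lengths of the time points overlapped, with 2235 and 1834 bp at ZT18, against 1473 bp (in 2 peaks) and 1940 bp at ZT6. That region held 110 and 133 normalized tags at ZT18, against 18 and 24.3 at ZT6, and its log2 fold change of 2.51 ± 0.19 for summed tags (adjusted p = 0.000586, edgeR) was 2.29 per kb, the highest of the 10.

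The other 7 of the 10 largest rises were at chr4:30614219-30617907, chr3:31694774-31697112, chr4:19770682-19772526, chr4:21414198-21416007, chr8:21722036-21724519, chr1:34311827-34313647 and chr6:14578232-14580764. Their log2 fold changes were between 2.36 and 2.67. As in all rising regions, both ZT18 libraries lay above both ZT6 libraries in level in all 10 of the largest rises. They also did so in fold enrichment in all 10, and in called length in 9 of them. All 10 kept an adjusted p under 0.05 by edgeR for tags per kb. Per kb of called length, the log2 fold changes of the 10 largest falls lay between −2.45 and −0.59, and 9 of the 10 still passed the edgeR test.

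**Figure D2:**
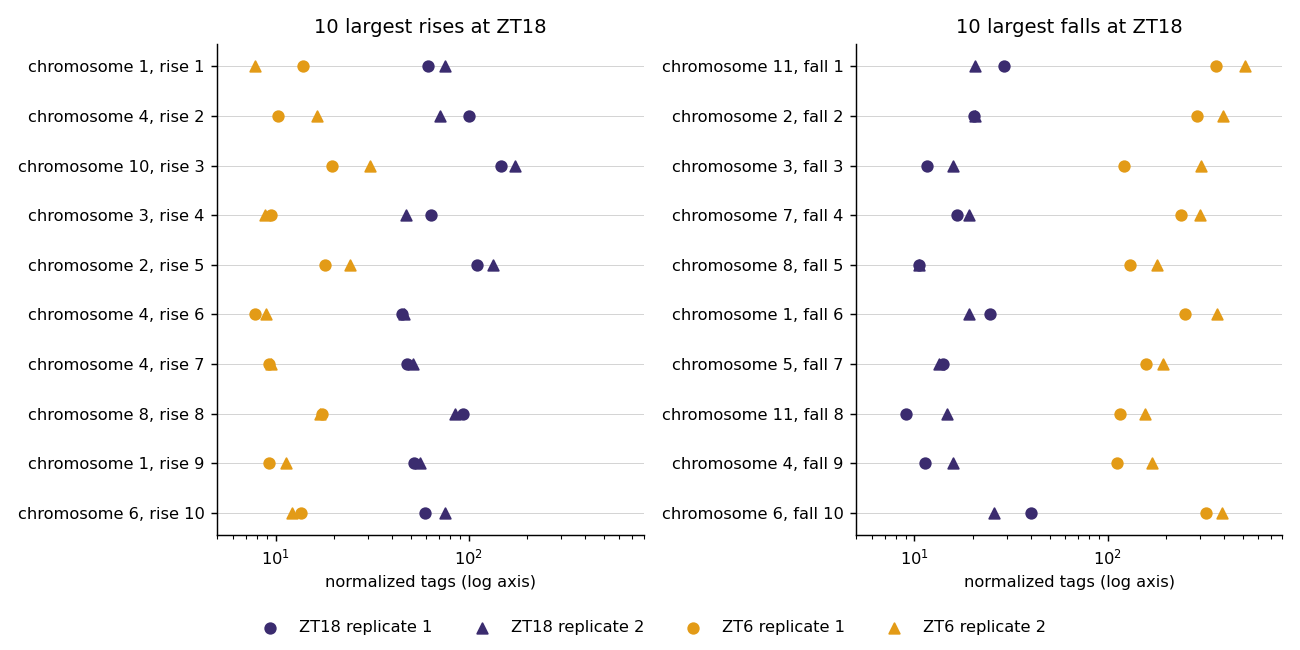
Normalized tags (horizontal log axis) of the 4 libraries in the 10 regions with the largest rise at ZT18 (left) and the 10 with the largest fall (right), 1 line per region, each named by its chromosome and rank. Dark symbols are the ZT18 replicates and light symbols the ZT6 replicates. In every line the ZT18 symbols are apart from the ZT6 symbols, and the replicates of chromosome 3, fall 3 are the widest apart among the falls, with 121 and 304 at ZT6.

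The same difference in length was seen over the whole classes. In falling regions the median called length was 1519 and 1206 bp at ZT18, against 2114 and 2770 bp at ZT6. In rising regions it was 1637 and 1395 bp at ZT18, against 1236 and 1413 bp at ZT6, and in regions not called 1330 and 1116 bp, against 1271 and 1451 bp. Only in falling regions were both ZT18 medians below both ZT6 medians, and there the ZT6 replicates lay further apart than the nearer medians of the time points. In the pair closest in depth, ZT18 replicate 1 over ZT6 replicate 2, the median ratio of called lengths was 0.607 in falling, 1.12 in rising and 0.917 in regions not called. The called length was under 50% of the ZT6 length in all 4 pairings of a ZT18 with a ZT6 library in 189 falling regions (11.7%), in 1 region not called and in 0 rising regions. Since summed tags depend on the called length, these lengths describe the calls and are no independent test of them.

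Regions with a long called mark were counted in each class, by the summed length of their peaks in a library. This called length was 4000 bp or more in 31 and 10 of the 1621 falling regions at ZT18, against 189 and 408 at ZT6. Of the 16357 regions not called, 196 and 83 had such a called length at ZT18, against 191 and 498 at ZT6. When the tested regions were divided by width into 5 bins of like number, 1.23% of the shortest bin (322 to 1268 bp) and 27.5% of the widest bin (2278 to 11377 bp) were falling. Rising regions had no such gradient, with 4.31% in the shortest bin, 8.50% in bin 4 and 6.22% in the widest. The width of a region is the joint extent of its peaks in all 4 libraries, so a long ZT6 peak makes a region both wide and high in ZT6 tags, and these shares restate the calls and are no test of width. The median level in falling regions was 38.4 and 36.3 normalized tags at ZT18, against 70.9 and 86.2 at ZT6, and the median fold enrichment 7.59 and 7.99, against 8.03 and 6.65. The levels of the time points were apart, while their fold enrichments overlapped.

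The extra length at ZT6 lay more on one side of the peak than on both. Among falling regions with a single peak in each library of the pair closest in depth, 479 were at least 2 times as long in ZT6 replicate 2 as in ZT18 replicate 1, by a median of 2463 bp. In 285 of them (59.5%), at least 80% of the extra length lay on 1 side, and the larger side was the left one in 240 of the 479. The same share was 63.2% among the 204 regions not called with such a difference, so the form was not particular to falling regions. The summits of the 2 peaks were a median of 53 bp apart in the 479 regions. Whether the longer side pointed into a gene was not analysed here, since no annotation of this assembly was used.

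**Figure D3:**
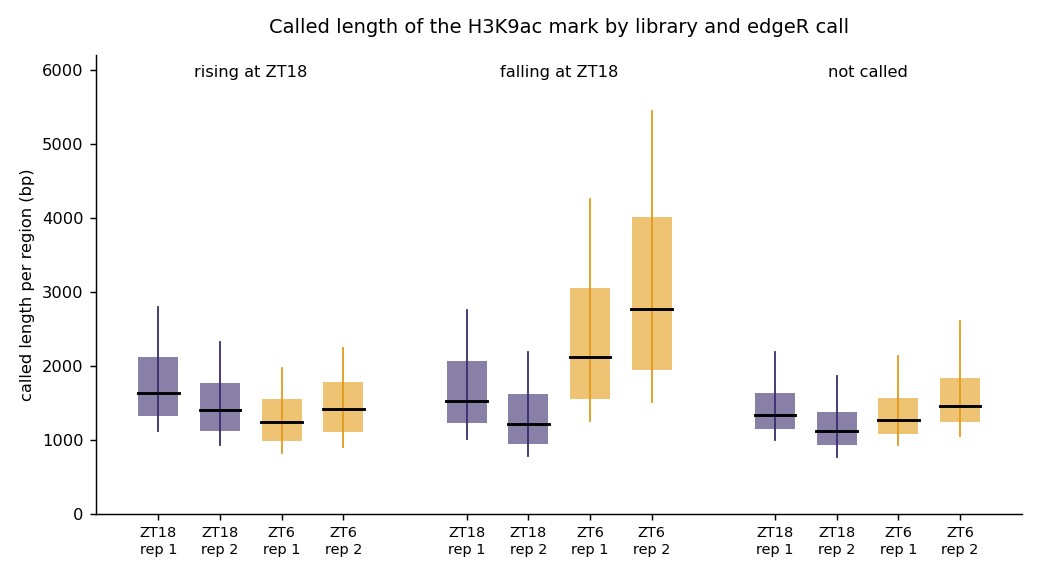
Called length of the mark per region (vertical axis, bp) in each of the 4 libraries, for the 1077 rising, 1621 falling and 16357 regions not called. Boxes span the quartiles, lines the middle 80% of regions, and black bars are medians. In falling regions the medians are 1519 and 1206 bp at ZT18 and 2114 and 2770 bp at ZT6.

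Among the regions not called were some of the most strongly marked. The region with the most tags among those not called, chr12:6650835-6659911, held 324 and 324 normalized tags at ZT18, against 459 and 550 at ZT6. Although its libraries did not overlap between the time points, its log2 fold change of −0.64 ± 0.29 missed the limit (adjusted p = 0.198, edgeR), and it passed with DESeq2 (adjusted p = 0.016) and in the edgeR fits with MACS tags as library size (adjusted p = 0.0416) and with all 8 diurnal libraries (adjusted p = 0.0436). The next, chr5:189018-197468, held 368 and 535 normalized tags at ZT18, against 368 and 471 at ZT6, and chr5:1153811-1161937 held 321 and 406, against 379 and 539. In both, the time points overlapped, and edgeR gave log2 fold changes of 0.10 ± 0.33 (adjusted p = 0.882) and −0.34 ± 0.32 (adjusted p = 0.553).

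Appearing and vanishing regions were about equally frequent, at 2.72% and 2.65% of all regions, and most of them were weakly marked. A region without a called peak has no value, so no fold change was computed. In the 698 appearing regions the median peak held 153.5 and 45 tags at ZT18, with a fold enrichment of 5.34 and 5.99, against a median of 8.33 and 9.46 over all peaks of these libraries. In ZT18 replicate 2, 82.4% of the appearing regions held under 100 tags, where the median over all peaks of that library was 112. In the 680 vanishing regions the median peak held 86.5 tags in ZT6 replicate 1, where the median over all peaks was 212. In ZT6 replicate 2 it held 175.5 tags, against 300 over all peaks. Under 100 tags were held by 58.4% of the vanishing regions in replicate 1 and by 21.9% in replicate 2. Dropping a library can only raise these counts, since fewer libraries then have to fit the pattern, and some of the rises were more than 1.5 times. Without ZT18 replicate 2, 2373 regions appeared and 741 vanished, and without ZT6 replicate 1, 1460 appeared and 1143 vanished. Without ZT18 replicate 1, 831 appeared and 1644 vanished, and without ZT6 replicate 2, 872 appeared and 1002 vanished. In all, 73.8% of the appearing and 74.7% of the vanishing regions lay within 10 kb of a tested region, close to the 74.1% of the regions not called that had another tested region within that distance.

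The appearing and vanishing regions with the most tags were wide. At chr2:31648233-31654044, the ZT18 libraries had 2805 and 1306 tags over 5764 and 5599 bp, and no peak was called in either ZT6 library. At ZT0 the 2 replicates of this region had 367 normalized tags and no peak, and at ZT12 they had 461 and 401. Over the 5 named appearing regions, both ZT12 libraries had a peak in 1, a single library in 1 and neither in 3, and both ZT0 libraries had a peak in 4. The other 4, at chr8:26766397-26773886, chr1:28015963-28021583, chr1:25696383-25704221 and chr1:40127142-40132574, held between 985 and 2827 tags in the ZT18 libraries. In these 5 regions the fold enrichment at ZT18 was between 3.62 and 4.78, low beside the library medians. All 5 had H3K9ac, Kbu and Kcr peaks in both libraries of control seedlings.

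Among the vanishing regions, chr9:10842147-10848576 had 1623 and 2822 tags over 6270 and 6334 bp at ZT6 and no peak at ZT18. It was followed by chr3:6776008-6780616, chr9:20884996-20890199, chr3:21998772-22002193 and chr10:22069332-22075798, with between 780 and 2141 tags in the ZT6 libraries. All 5 vanishing regions had a peak in both libraries of ZT0 and of ZT12. At chr9:20884996-20890199 the level at ZT12 was 325 and 301 normalized tags, above the 184 and 265 of ZT6, and at chr3:6776008-6780616 the level at ZT0 was 196 and 277, alongside 198 and 278 at ZT6. In both regions a time next to midday was thus as strongly marked as ZT6, or more so.

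A peak could be missing in 1 library where another library was strongly marked. The level in the library without the peak is not known. Peaks of 4000 bp or more had a median fold enrichment of 5.13 and 5.02 at ZT18 and 5.41 and 5.06 at ZT6, against 8.39 and 9.48 at ZT18 and 9.32 and 8.00 at ZT6 for shorter peaks. Of the 2092 regions with at least 100 normalized tags in ZT6 replicate 1, 123 (5.88%) had no peak in ZT6 replicate 2, the deeper library of that time point, and the median peak of these 123 was 4424 bp long with a fold enrichment of 5.10. In the opposite direction and between the ZT18 replicates, such cases numbered between 3 and 5. Between the time points, 23 regions with at least 100 normalized tags in both ZT18 libraries had no peak in either ZT6 library, and 20 regions had the opposite pattern. The part of peak calling in these absences was not tested. Regions of 4000 bp or more made up 13 of the appearing and 42 of the vanishing regions, and 685 and 638 were left without them.

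**Figure D4:**
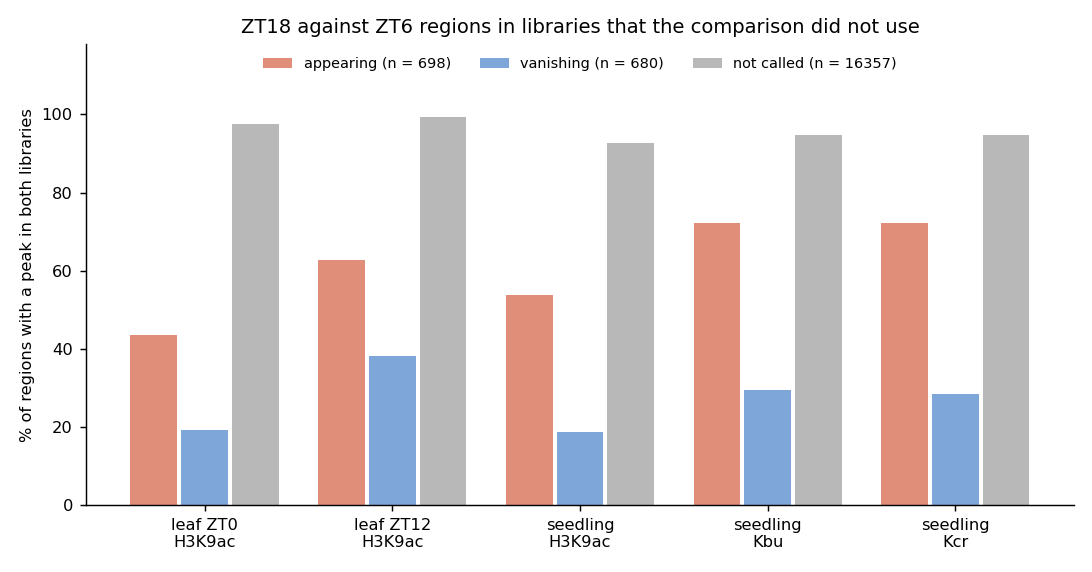
Share of appearing (n = 698), vanishing (n = 680) and tested but not called regions (n = 16357) with a peak in both libraries of 5 other groups, leaf H3K9ac at ZT0 and ZT12 and control seedling H3K9ac, Kbu and Kcr. Bars start at 0. Appearing regions had a peak more often than vanishing regions in each of the 5 groups, for example 62.8% and 38.1% at ZT12. The classes passed unlike filters, since vanishing regions had no peak in ZT18 replicate 1, the deepest of the compared libraries.

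Appearing regions were marked elsewhere more often than vanishing ones. The classes passed unlike filters. Appearing regions needed a peak in the shallow ZT18 replicate 2. Vanishing regions had none in ZT18 replicate 1, which had the most tags and peaks of the compared libraries. The part of these filters in the difference was not tested. A peak in both libraries was found at ZT0 in 43.7% of the appearing and 19.3% of the vanishing regions, and at ZT12 in 62.8% and 38.1%. In control seedlings it was found for H3K9ac in 53.9% and 18.8%, for Kbu in 72.3% and 29.6%, and for Kcr in 72.2% and 28.5%. No test was made, since regions of the same libraries are not replicates. For comparison, between 92.7% and 99.2% of the regions tested but not called had a peak in both libraries of these 5 groups. The share of regions that overlapped one of the 652 peaks of the input library, made from seedling chromatin without immunoprecipitation, also differed. It was 3.25% (35) in rising and 3.58% (25) in appearing regions, against 0.123% (2) in falling, 0.147% (1) in vanishing and 0.397% (65) in regions not called. Without such regions, edgeR called 1053 higher and 1626 lower regions, and 673 appeared and 679 vanished. None of the named regions overlapped an input peak.

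The leaf libraries at ZT0 and ZT12, which took no part in the calls, were read in the same regions. Levels were set relative to the median of the regions not called, since each library was scaled by its median. In falling regions the median log2 level was 0.06 and 0.13 in the 2 replicates at ZT0, 0.80 and 1.09 at ZT6, 0.26 and 0.22 at ZT12, and −0.12 and −0.17 at ZT18. In rising regions it was −0.16 and −0.21 at ZT0, −0.59 and −0.59 at ZT6, −0.05 and 0.02 at ZT12, and 0.29 and 0.25 at ZT18. Both other times thus lay between ZT6 and ZT18 in the medians of either class. The replicates of each time lay closer together than the medians of ZT6 and ZT18.

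**Figure D5:**
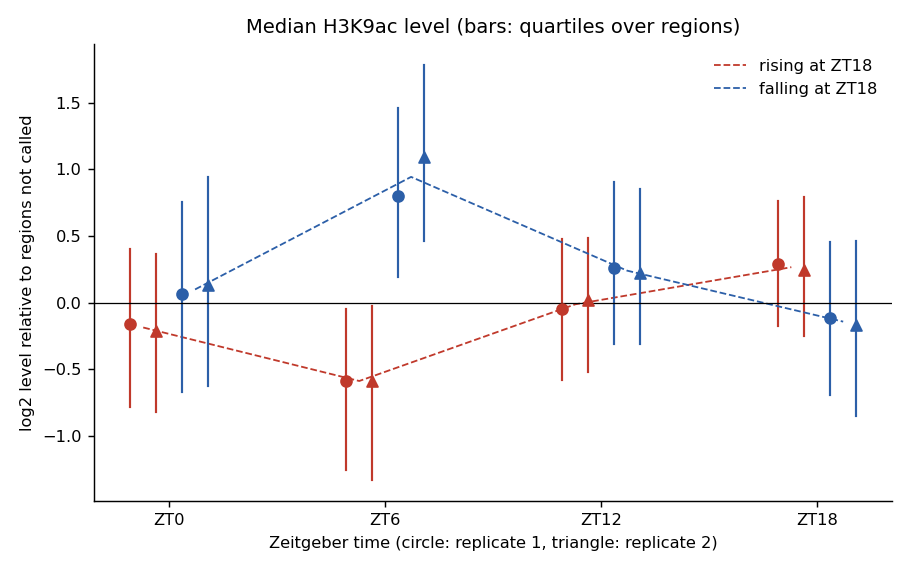
Median log2 level relative to the regions not called (vertical axis) of rising and falling regions at ZT0, ZT6, ZT12 and ZT18 (horizontal axis), with circles for replicate 1, triangles for replicate 2 and vertical lines for the quartiles over regions. Dashed lines join the means of the replicates. Falling regions are highest at ZT6 (0.80 and 1.09) and rising regions lowest at ZT6 (−0.59 and −0.59), and both classes were chosen on ZT6 and ZT18.

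Region by region, midday was the extreme more often than the night. Of the 1476 falling regions with a peak in all 8 leaf libraries, 82.7% were highest at ZT6, whereas 41.1% were lowest at ZT18, 34.9% at ZT0 and 24.0% at ZT12. Of the 1019 such rising regions, 81.6% were lowest at ZT6 and 72.2% highest at ZT18. Since the classes were chosen on ZT18 and ZT6, these shares are a description. In regions not called, 21.5% were highest and 26.6% lowest at ZT6, and 20.9% were highest and 14.5% lowest at ZT18. Across the 18340 regions with peaks in all 8 libraries, the change of ZT18 over ZT6 had a Pearson's r of −0.0116 with that of ZT12 over ZT0, a comparison of other libraries. This correlation is across regions, which share libraries and are not independent.

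The 10 largest changes differed in their course. Among the rises, both ZT12 libraries were above both ZT6 libraries in 10 and both ZT0 libraries in 9. At chr4:21414198-21416007 the ZT12 peaks held 138 and 103 normalized tags, against 48.0 and 51.1 at ZT18. These ZT12 peaks were called over 5772 and 3554 bp, against 1810 and 1528 bp at ZT18. They ran beyond the region of 1810 bp and all their tags were counted, so the levels are not of like extent. The region at chr1:34311827-34313647 had 14.9 and 19.2 at ZT12 but 52.0 and 55.5 at ZT18, and 9.26 and 11.3 at ZT6. Among the falls, both ZT12 libraries were below both ZT6 libraries in all 10, and so were both ZT0 libraries in the 9 regions with a peak in each. At chr4:30567888-30574248, ZT0 replicate 1 had no peak. At chr6:31025402-31029819 the level was 225 and 240 at ZT0, 323 and 388 at ZT6, 18.2 and 33.3 at ZT12, and 40.1 and 25.7 at ZT18, so that the mark was high at ZT0 and ZT6 only. At chr5:21188284-21193646 it was 17.2 and 15.9 at ZT0, 158 and 193 at ZT6, 74.8 and 70.1 at ZT12, and 14.1 and 13.4 at ZT18, with a slower decline after midday. At chr1:43114937-43122668, with 19.1 and 36.1 at ZT0, 250 and 369 at ZT6, 33.1 and 31.3 at ZT12, and 24.7 and 19.2 at ZT18, the mark was high at ZT6 only.

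In the 12-day-old seedlings, falling regions were marked less often than rising ones. A peak in both control H3K9ac libraries was found in 91.1% of rising, 84.5% of falling and 92.7% of regions not called, and for Kbu in 94.2%, 89.9% and 94.6%. The median H3K9ac level in control seedlings, relative to regions not called, was −0.01 and −0.02 on the log2 scale in rising and −0.15 and −0.15 in falling regions. The seedlings differ from the leaves in age as well as in treatment, and seedling levels were not tested against leaf levels. The change of ZT18 over ZT6 was compared with that of seedlings after 48 h of darkness over their controls. Across the 16605 regions with peaks in all 8 libraries of both comparisons, Pearson's r was 0.0656 for H3K9ac. It was 0.0428 for Kbu over 17693 regions and 0.0118 for Kcr over 17715. The median change in darkness was −0.09 in rising and −0.16 in falling regions for H3K9ac, and thus below 0 in both classes.

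Rising and falling regions occurred on all 12 chromosomes. The share of rising regions was between 4.57% on chromosome 3 and 6.65% on chromosome 4, and that of falling regions between 6.45% on chromosome 12 and 9.90% on chromosome 5. Regions of a class also lay near each other. Among regions with another tested region within 10 kb, 22.7% of the rising ones had a rising neighbour, against 7.00% of the regions not called, and 27.2% of the falling ones had a falling neighbour, against 12.0%. A falling neighbour was found for 6.34% of the rising regions and a rising neighbour for 3.80% of the falling ones. These shares were not tested.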

How the data were processed

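Leaf chromatin was immunoprecipitated with anti-H3K9ac and sequenced. According to the study's methods, reads were trimmed with Trimmomatic, aligned to MSU7.0 with Bowtie2 2.2.5, cleared of PCR duplicates with SAMtools 0.1.19 and used for peak calling with MACS 1.4.2, per library and without a control library. The authors deposited for each peak a tag count that is not normalized and holds at most 1 tag per position. The fold enrichment, a ratio to the local background, and the score (10 times −log10 of p, at least 50) are as deposited by the authors. Tags outside peaks were not used here.

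Peaks were merged at 1 bp of overlap and tags summed per region and library in Python 3.11.15 (pandas 2.3.3). Peaks of the other libraries were assigned, with all their tags, to the region of largest overlap. Those libraries were scaled by their median ratio to the 4 compared ones. The tested regions held between 2843705 and 8223825 tags per library. Regions with a peak in all 4 libraries were tested with edgeR 4.0.16 in R 4.3.3 (quasi-likelihood, TMM on summed tags, ZT18 over ZT6, common dispersion 0.0169, Benjamini-Hochberg). SE values are those implied by the F statistic. The methods were tested on simulated data. An exact permutation test of 2 against 2 libraries cannot give a two-sided p below 0.33, so none was made.

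Named are the 10 largest rises and falls that moved the same way in both replicate pairs, the 5 appearing and 5 vanishing regions with the most tags, and the 3 regions not called with the most tags. Members and lists were chosen with earlier results of these data known. Gene models and planned gene lists were not used here, since the annotation at hand is of another assembly. Alternatives were other scalings, DESeq2 1.42.0, filters, overlaps, scores, the called length, a replicate block, all 8 diurnal libraries and leaving out each library.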

Additional observations from a re-analysis of the deposited data

Results flagged for a closer look

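Peaks of the input library, which took no part in the comparison, overlapped 35 of the 1077 rising (3.25%) and 25 of the 698 appearing regions (3.58%). Of the 16357 regions not called they overlapped 65 (0.397%), and of all 25654 regions 180. The 35 rising regions formed 18 groups at least 100 kb apart and the 25 appearing regions 10 such groups. On chromosome 7 lay 10 of the 25 appearing regions. Their part in the rise at ZT18 was not tested. The input was made from seedlings and not from the leaves of this comparison.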

How the results depend on the processing

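The tests rest on 2 residual degrees of freedom, regions without a peak have no value, and ZT18 replicate 2, with 5914314 tags, limits weak regions most. The count of 2698 called regions was between 2225 and 2904 with RLE size factors, MACS tags as library size, DESeq2, a mean of at least 100 tags, overlaps of at least 50% or a score of at least 100. With the aligned reads it was 12 (0 higher, 12 lower), with missing peaks taken as 0 tags 723 (332 and 391), with the called length as offset 800 (632 and 168), and with all 8 diurnal libraries 1649 regions were higher. Without 1 library it was between 1241 and 3209 (394 to 1077 higher, 847 to 2132 lower). The 1.5-fold rule gave 506 regions per aligned read (88 higher, 418 lower) and 763 per kb called (553 and 210). Without 1 library, between 831 and 2373 regions appeared and between 741 and 1644 vanished. The cause of these shifts was not tested, beyond the fewer libraries or the added length in their construction. Among the alternatives on the same regions, no call of one direction became a call of the other, except for 2 regions with the called length as offset.

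With the replicate number as a block, 2319 regions were called (922 higher, 1397 lower). The labels do not say whether same-numbered libraries were handled together. Deviations of same-numbered libraries had a correlation of 0.0913 across regions, which cannot settle this with 2 libraries per time point.

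All 20 named rises and falls kept their direction in every alternative that tested them. With the aligned reads none of the 10 rises was called, and with missing peaks as 0 tags 2 rises and 1 fall were not. With the called length as offset 1 fall was not. Among the regions not called, chr5:189018-197468 turned to −0.16 with the aligned reads, −0.20 with a score of at least 100, and between −0.18 and 0.35 without 1 library, and chr5:1153811-1161937 turned to 0.21 with the called length as offset. chr12:6650835-6659911 was called with DESeq2, MACS tags as library size and all 8 diurnal libraries. The alternatives without regions that overlap an input peak and without regions of 4000 bp or more were chosen after seeing the data.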
